A study of Mus musculus with 6 samples.

Results

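Mcpt8, Gzmc, Gzmd, Gzme, Gzmf and Gzmg are 6 genes for serine proteases of immune cell granules. They are 6 of the 21485 genes that all matrices of the study share. They were chosen from measured values: their level in each population, the share of cells in which each was found, and the finding that Mcpt8 and Gzme led cells of an old population that lacked immune markers. Those levels, shares and co-detections, and the scarcity of immune markers, are therefore given as a description, with no test. The cells were muscle-derived stem/progenitor cells (MDSPCs), which are late-adhering cells of digested mouse skeletal muscle, enriched on collagen-coated flasks and grown in serum-rich proliferation medium with chick embryo extract. Young mice gave 3 of the populations and old mice the other 3, and each is called by its group and its labelled biological replicate number. Each was 1 library of droplet-based 3′ single-cell RNA sequencing. All 6 were grown under the same conditions and no further treatment is named. The age, strain, sex and genotype of the mice, and whether a population pools several mice, are not given in the sources used here.

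Granzymes are proteases that cytotoxic T cells and natural killer cells store in granules and release, together with the pore-forming protein perforin, onto target cells. Granzymes C to G are rodent genes, and Gzmd to Gzmg are known from natural killer cells of the pregnant uterus. Mcpt8, despite its name, is best known as a marker of mouse basophils. All belong to a cluster of related protease genes that also holds Gzmb, cathepsin G and the mast cell chymases. None of them is a usual marker of skeletal muscle progenitors.

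The 6 genes lie on the minus strand of chromosome 14 within 152.5 kb, at positions 56082166 to 56234656 of the mouse build GRCm38 (GENCODE M21). In order of position they are Mcpt8 (start 56082166, end 56085273), Gzme (56117626, 56120625), Gzmd (56129556, 56132608), Gzmg (56156582, 56159579), Gzmf (56205263, 56211417) and Gzmc (56231441, 56234656). Each is a protein-coding gene with 5 exons in its first annotated transcript. The miRNA gene Mir6949 lies inside Mcpt8 on the same strand, and the annotation has an antisense gene, Gm4022, opposite Gzmf. The transcripts of Gzme and Gzmd are 90.0% identical and those of Gzme and Gzmg 89.1%, whereas Mcpt8 and Gzme are 57.6% identical. Of the 827 stretches of 90 bases (the length of the cDNA read) in the Gzme transcript, 7 occur unchanged in Gzmd and 1 in Gzmg. How the authors' counting assigned a read that fits both copies is not given in the sources used here, so the split between Gzme and Gzmd is uncertain to that extent. The 120 bases before each transcription start are shown, taken from RefSeq promoters (GRCm38.p6, 6 of 6 genes matched) and read from the RefSeq or GENCODE start, whichever lies further upstream. They are printed because the granzymes share a promoter that Mcpt8 lacks, although Mcpt8 and Gzme were found in the same cells. Capitals mark a block of 20 bases, found by comparing these promoters, that all 5 granzymes share and, where present, the letters TGACGTCA just upstream of it.
Mcpt8 (chr14:56085274-56085393, minus strand): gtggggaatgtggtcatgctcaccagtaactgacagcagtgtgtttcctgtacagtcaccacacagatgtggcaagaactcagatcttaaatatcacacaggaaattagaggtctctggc
Gzme (chr14:56120626-56120745, minus strand): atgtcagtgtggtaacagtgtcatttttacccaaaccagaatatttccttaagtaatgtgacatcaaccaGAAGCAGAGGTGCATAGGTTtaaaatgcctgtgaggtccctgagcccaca
Gzmd (chr14:56132609-56132728, minus strand): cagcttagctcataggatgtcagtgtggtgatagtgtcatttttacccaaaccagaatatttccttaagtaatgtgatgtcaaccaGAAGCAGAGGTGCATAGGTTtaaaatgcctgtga
Gzmg (chr14:56159580-56159699, minus strand): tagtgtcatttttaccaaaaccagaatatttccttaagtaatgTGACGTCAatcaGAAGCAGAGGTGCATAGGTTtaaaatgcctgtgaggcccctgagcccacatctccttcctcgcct
Gzmf (chr14:56211418-56211537, minus strand): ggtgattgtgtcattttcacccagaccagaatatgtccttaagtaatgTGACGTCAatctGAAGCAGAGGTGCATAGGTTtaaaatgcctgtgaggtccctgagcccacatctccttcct
Gzmc (chr14:56234658-56234777, minus strand): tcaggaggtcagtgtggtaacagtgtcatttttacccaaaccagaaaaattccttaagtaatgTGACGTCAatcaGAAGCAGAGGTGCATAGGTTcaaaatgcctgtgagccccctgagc

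Over 250 bases, the promoters of Gzme and Gzmd were 95.2% identical. Other pairs of the 5 granzymes were between 77.2% and 85.2% identical, and Mcpt8 was 50.8% to 54.0% identical to each granzyme. The shared block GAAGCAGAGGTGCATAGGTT was found in 5 of 32817 mouse promoters of that table, searched on both strands over the 250 bases before the RefSeq start, and these 5 are the granzymes named here. The block was chosen as the longest run that these 5 promoters share, so its presence in them was fixed by that choice. The count is a description and no test. TGACGTCA, the palindrome known as the cAMP response element, was in Gzmc, Gzmf and Gzmg and in 1.548% of all promoters. Gzmf had 1 count in these cells and Gzmg none. Gzmc had fewer counts than Gzmd in young replicates 1 and 3 and old replicates 1 and 3. In old replicate 2 Gzmc had 107 counts and Gzmd 73, and in young replicate 2 each had 3. AACCACA, a sequence known for RUNX factors, was in all 5 granzyme promoters and in 4.394% of all promoters. Other spellings of it were not searched, so no contrast with Mcpt8 is drawn from it. None of the 6 windows held the AP-1 letters TGAGTCA, which were in 4.464% of all promoters. Nor did any hold the STAT pattern TTCNNNGAA, in 7.015% of all. The GATA letters AGATAA were in no member and in 9.992% of all. The E-box CAGCTG was in no member and in 13.005% of all. A match of letters is a description and does not show that a factor binds.

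Of 62849 deposited barcodes, 61673 passed the filters on depth and mitochondrial share. Those of a population held between 133683424 and 196258384 unique molecular identifiers (UMIs, tags that count each RNA molecule once), with a median of 13001 to 19951 UMIs per cell. Any 2 libraries shared between 23 and 35 barcodes. Young replicate 1 and old replicate 1 were counted on a gene list of 21849 features and the other 4 on a list of 32285. The labelled cell type was checked against 10 myogenic genes. Their summed level, in CPM (counts divided by the library's total and multiplied by a fixed number, here with the total scaled by the trimmed mean of M values, TMM), was 566, 2430 and 369 for young replicates 1, 2 and 3, against 384, 1769 and 3864 for the old ones. Young replicates 1 and 3 and old replicate 1 thus stood below the other 3 in myogenic RNA. Myod1, the muscle determination factor, was present in all 6, at 42.3 to 963 CPM. Pax7, the satellite cell factor, had 5 counts in all of young replicate 3, and Myf5 had 1 count in all of young replicate 1.

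Immune markers were scarce, which the choice of these genes had taken into account. Ptprc, which encodes the leukocyte antigen CD45, had between 0 and 8 UMIs per population. Fcer1a, Tpsb2 and Mrgprb2 of mast cells and basophils, Cd8a and Ncr1 of lymphocytes, and the leukocyte genes Tyrobp and Vav1 had no UMI in any population. Prss34, a basophil protease, had 0 to 2 UMIs, and Kit, the stem cell factor receptor of mast cells, 0 to 6. The 11 mast cell genes summed to 0.561 to 1.98 CPM, led by Hpgds, a prostaglandin D synthase. Old replicate 1 had 106 counts of the tryptase gene Tpsab1 and 40 of Ms4a2, a chain of the IgE receptor, of which young replicate 1 had 23. The 14 measured T and natural killer cell genes summed to 0.308 to 1.89 CPM. Gzmb, which belongs to the same gene cluster as the members, led in young replicate 2 and old replicate 2. Cd4 led in the other populations except old replicate 3, where the T cell receptor chain gene Cd3g did, with 50 counts. The 8 basophil genes summed to 1.55 to 12.9 CPM, most of it Il3ra, the interleukin 3 receptor alpha chain, at 1.16 to 10.3 CPM. The 13 leukocyte genes summed to 1.53 to 23.5 CPM. In 4 of the 6 populations they were led by Cd53, a tetraspanin, at 21.0, 0.021 and 0.205 CPM among the young and 3.30, 3.01 and 7.32 CPM among the old replicates. The part of Cd53 in the protease levels was not tested.

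Mcpt8 was the most abundant member. Its counts were 1679, 14 and 3189 in the 3 young replicates, in their order, against 10345, 501 and 10468 for the old. On the TMM CPM scale the levels were 14.8, 0.073 and 15.6 among the young and 61.7, 2.70 and 60.7 among the old. Old replicates 1 and 3 were therefore alike and highest, young replicates 1 and 3 alike and next, and old replicate 2 and young replicate 2 lowest. The old and young groups overlapped, because old replicate 2 lay under young replicates 1 and 3. The group means were 10.2 ± 8.75 CPM among the young and 41.7 ± 33.8 CPM among the old (SD, n = 3 each).

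Gzme showed the same division, but old replicate 2 lay just under young replicates 1 and 3. Its counts were 595, 23 and 1326 among the young and 4647, 870 and 5213 among the old replicates. The levels were 5.26, 0.119 and 6.49 CPM among the young and 27.7, 4.69 and 30.2 CPM among the old, with means of 3.95 ± 3.38 and 20.9 ± 14.1 CPM (SD, n = 3 each). UMI counts from 3′ ends do not scale with transcript length, but capture and mapping can differ between genes, so the ratios that follow describe counts and not molecules in the cell. In the 4 populations with high levels there were 2.82 (young replicate 1), 2.40 (young replicate 3), 2.23 (old replicate 1) and 2.01 (old replicate 3) Mcpt8 counts for each Gzme count. In young replicate 2 and old replicate 2 the ratio was turned round, at 0.609 and 0.576, the former from only 37 counts.

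Gzmd, the closest relative of Gzme, was found at a small fraction of it. Its counts were 46, 3 and 127 among the young and 688, 73 and 924 among the old replicates, or 0.406, 0.016 and 0.621 CPM against 4.10, 0.394 and 5.36 CPM. Between 5.64 (old replicate 3) and 12.9 (young replicate 1) Gzme counts were found for each Gzmd count. Gzmc did not follow the other 3. With 1, 3 and 5 counts among the young and 36, 107 and 6 among the old replicates, it was highest in old replicate 2, where Mcpt8 was low. Its levels were 0.009, 0.016 and 0.024 CPM among the young and 0.215, 0.577 and 0.035 CPM among the old replicates. Gzmc was the only member of 6 whose young and old values did not overlap. That rests on 6 counts in old replicate 3 against 5 in young replicate 3. Of all genes tested, 3.63% were higher in every old than in every young population, and the choice of members used this contrast. Gzmc was too sparse to be among the genes tested, so that share is no background for it. Gzmf had 1 count in old replicate 2 and none elsewhere, and Gzmg had none in any population. A count of 0 allows up to 3 counts, which is 0.0147 to 0.0265 CPM in these libraries.

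**Figure D1:**
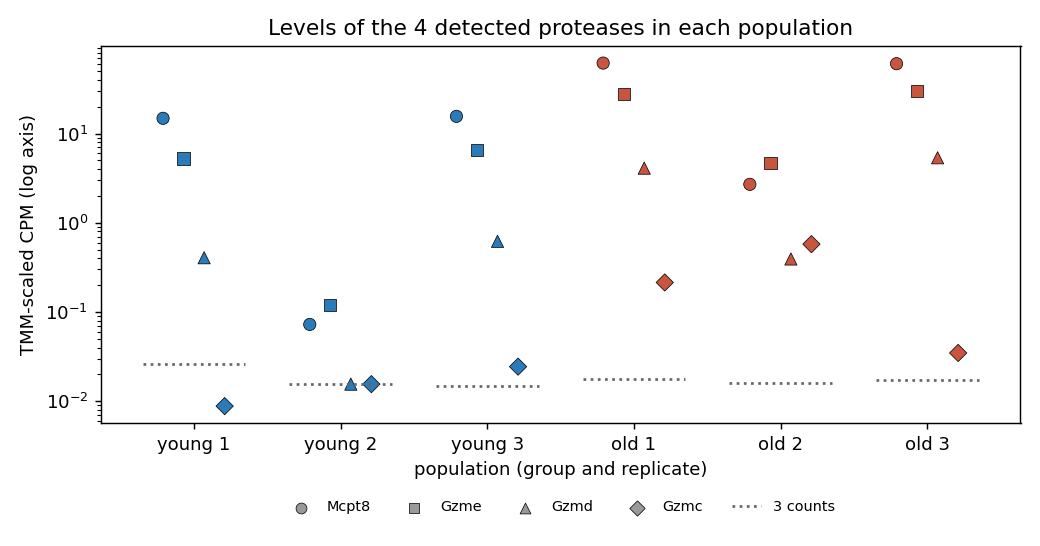
Level of Mcpt8, Gzme, Gzmd and Gzmc in each of the 6 populations (TMM CPM, log axis; blue young, red old; 1 point per gene and population). Dotted lines mark the level of 3 counts; old replicates 1 and 3 hold the highest Mcpt8, at 61.7 and 60.7 CPM, and young replicate 2 the lowest, at 0.073 CPM.

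Together the 6 genes reached 20.5, 0.223 and 22.7 CPM among the young and 93.7, 8.37 and 96.3 CPM among the old replicates. Mcpt8 and Gzme made up 86.0% to 98.0% of these counts in each population. The mean was 14.5 ± 12.4 CPM among the young and 66.1 ± 50 CPM among the old (SD, n = 3 each), a difference of 51.6 CPM, close to the SD among the old populations. Without old replicate 2 the difference was 80.5 CPM. Of the 6 members, 3 (Mcpt8, Gzme and Gzmd) passed the filter on low counts in the edgeR fit of old against young populations, and no test of them is given. In that fit over 14512 genes, 0.00689% were called in either direction, that is the single gene Cyba, with 512 at an unadjusted p under 0.05, and DESeq2 called 261 (1.64%). These are counts over all genes, and the choice of the members rests on the same contrast.

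The share of cells in which a member was found differed between populations and rose with depth, so a cell with no UMI cannot be read as lacking the RNA. A UMI of any member was found in 17.5%, 0.398% and 29.3% of cells among the young and in 39.3%, 13% and 48.7% among the old replicates. To compare populations at 1 depth, each cell was thinned at random to 5000 UMIs, which left out 149 to 373 shallower cells per population. The shares were then 7.05% (95% exact binomial interval 6.51 to 7.61), 0.141% (0.0789 to 0.232) and 10.6% (10.0 to 11.2) in young replicates 1, 2 and 3. In old replicates 1, 2 and 3 they were 23.9% (23.1 to 24.8), 3.90% (3.50 to 4.33) and 28.9% (28.1 to 29.7). These intervals cover counting error within 1 library only. The order of populations was the same as for the summed level, and old replicate 2 stood above young replicate 2 alone. At 5000 UMIs, Mcpt8 was found in 5.60%, 0.0751% and 7.67% of young and 18.8%, 1.20% and 21.1% of old cells, and Gzme in 1.88%, 0.0376% and 3.34% of young and 10.4%, 2.42% and 11.6% of old cells. In young replicate 2 the 43 UMIs of all members were spread 1 per cell over 43 of 10806 cells, or 0.398%, where an even spread gives 0.397%.

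In old replicates 1 and 3 a minority of cells held much of the protease RNA. If the Mcpt8 UMIs of old replicate 1 had been spread over its cells in proportion to their depth, 60.7% of cells would have had at least 1, and 33.3% (95% exact binomial interval 32.4 to 34.2) did. For old replicate 3 these shares were 53.4% and 39.9%, and for young replicate 3 they were 25.0% and 22.8%. Gzme in old replicate 1 was likewise in 19.6% of cells where an even spread gives 35.5%. In young replicate 1 Gzme was in 4.62% of cells where an even spread gives 6.58%. Cells with 10 or more member UMIs numbered 5, 0 and 2 among the young and 372, 4 and 158 among the old replicates. That cut is reached more easily where the level of a population is higher. The 372 cells of old replicate 1 were 3.67% of its cells and held 41.8% of its member UMIs, and the 158 of old replicate 3 were 1.26% of cells and held 12.7%. Their median depth was 17339 and 18250 UMIs, against 13498 and 12818 in all cells of those populations. Ptprc was found in 1 of the 372 and in 0 of the 158, a description only, since the lack of immune markers was part of the choice. The highest count in a single cell was 52 for Mcpt8 (old replicate 1) and 55 for Gzme (young replicate 1).

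**Figure D2:**
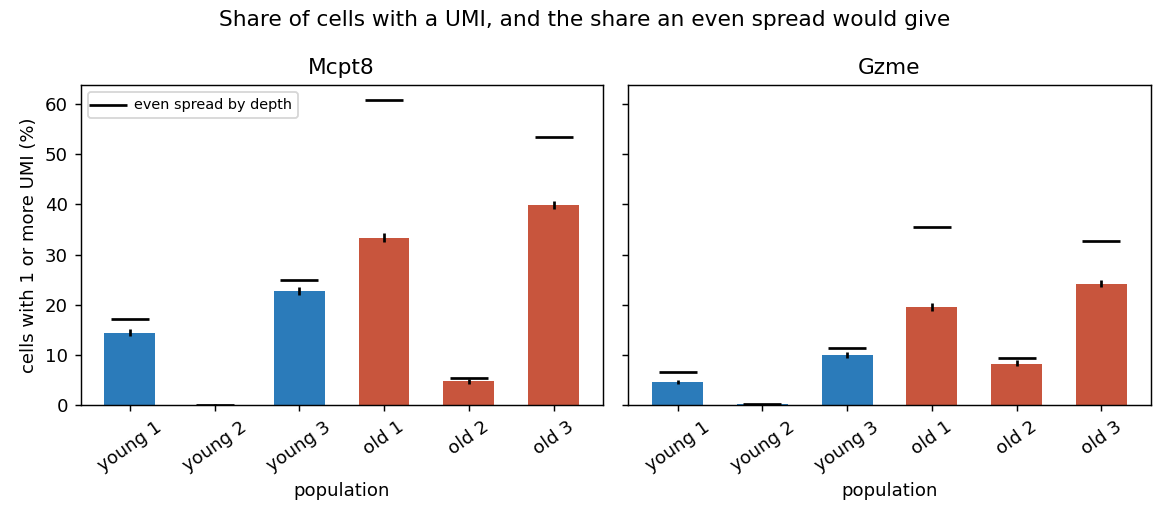
Percent of kept cells with at least 1 UMI of Mcpt8 or Gzme in each population (bars; blue young, red old; error bars, 95% exact binomial intervals), without thinning. Black lines mark the percent expected if the same UMIs were spread in proportion to cell depth; the gap is widest in old replicate 1, where Mcpt8 was in 33.3% of cells against 60.7%.

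Mcpt8 and Gzme were found in the same cells more often than independent detection gives, in the 5 populations with enough such cells. At 5000 UMIs per cell, Mcpt8 was in 54.8% of the cells of old replicate 1 with a Gzme UMI and in 14.7% of those without. In old replicate 3 the shares were 37.6% and 18.9%, in young replicate 1 they were 26.4% and 5.2%, and in young replicate 3 they were 17.5% and 7.33%. Old replicate 2 had 3.40% and 1.14%, the former from 7 cells. Cells with both were 1.79 (old replicate 3) to 4.72 (young replicate 1) times as many as the product of the 2 shares gives. In young replicate 2, with 4 Gzme cells, none had Mcpt8. Gzme was likewise in 59.6% of the Gzmd cells of old replicate 1 and 9.52% of its other cells, and in 39.7% and 11% in old replicate 3. In old replicate 2 Gzme was in 0 of 17 Gzmd cells (95% exact binomial interval 0 to 19.5%) and in 2.43% of the others. Without thinning it was there in 16 of 57 Gzmd cells (28.1%) and in 8.21% of the others. At 5000 UMIs, in young replicates 1 and 3 it was in 5 of 12 and 9 of 33 Gzmd cells. Doublets, droplets that hold more than 1 cell, remain in these data and their part in the co-detection was not tested.

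**Figure D3:**
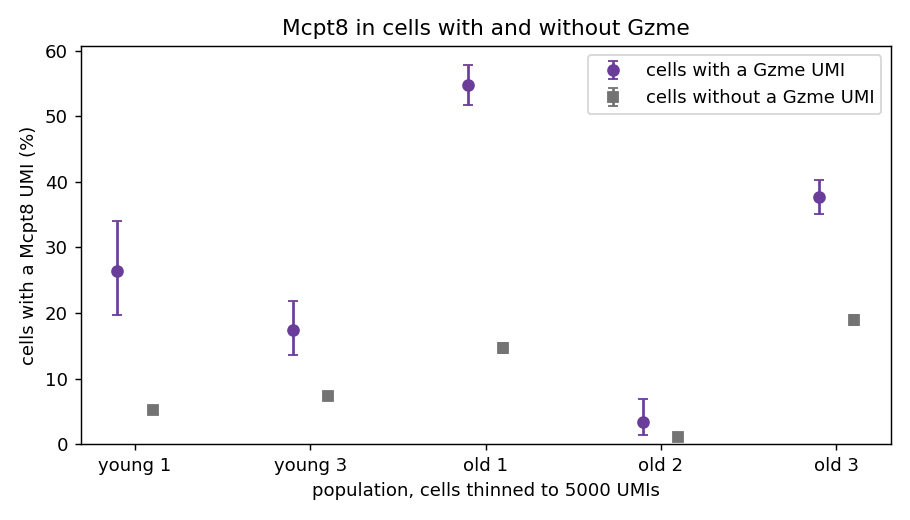
Percent of cells with a Mcpt8 UMI among cells with (circles) and without (squares) a Gzme UMI, per population, all cells thinned to 5000 UMIs (error bars, 95% exact binomial intervals). Young replicate 2 is left out, with 4 Gzme cells; the share is higher beside Gzme in each of the 5 populations shown, at 54.8% against 14.7% in old replicate 1.

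Among the genes that differed between cells with and without protease RNA within populations, 69 of 78 were lower in the cells with it. Mybph, Smpx and Tnni2, which encode muscle proteins, were lower and Odc1 was higher. Within each of 5 populations, cells with at least 1 member UMI at 5000 UMIs were compared with cells without, over all other genes. The classes, called cells with and without protease RNA for short, rest on the thinned counts. In the deposited counts more cells held a member UMI, in old replicate 3 for example 6108 where 3516 were classed as with it, so some cells of the class without held one too. Counts were summed per population and class and fitted with edgeR with the population as a block, and young replicate 2 had too few such cells, at 15, to enter. Of 12334 genes, 0.632% were called at an adjusted p under 0.05: 9 were higher (0.073%) and 69 lower (0.559%) in cells with protease RNA, of which 58 were lower by more than 2-fold. Thinning is random, and 4 further draws, added after the data were seen, gave 75 to 96 calls. Across the 5 draws 170 genes were called at least once and 25 every time, of which 24 were lower and 1, Odc1, was higher. The values given next come from the first draw, with the number of draws that called each gene.

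Mybph, a myosin binding protein, stood in cells with and without protease RNA at 2.95 and 17.3 CPM in young replicate 1, 0.334 and 2.53 in young replicate 3, 0.817 and 2.00 in old replicate 1, 1.64 and 11.8 in old replicate 2, and 19.1 and 92.0 in old replicate 3. It fell by 2.27 on the log2 scale (SE 0.15, edgeR adjusted p = 5.57e-06, lower in 5 of 5 populations, called in all 5 draws). Smpx, a small muscle protein, fell by 2.41 (SE 0.18, edgeR adjusted p = 3.00e-05) and Tnni2, the fast skeletal troponin I, by 1.43 (SE 0.12, edgeR adjusted p = 7.32e-05), each in 5 of 5 populations and all 5 draws. The calls of these 3 genes were kept with each of the 5 populations left out in turn. The difference was smallest in old replicate 1, and that was not tested against the others.

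Myog, the transcription factor that starts terminal muscle differentiation, stood at 11.1 and 48.8 CPM in cells with and without protease RNA of young replicate 1, 8.35 and 46.8 in young replicate 3, 4.17 and 8.15 in old replicate 1, 64.6 and 171 in old replicate 2, and 314 and 1361 in old replicate 3. It fell by 1.89 (SE 0.21, edgeR adjusted p = 0.0438, 5 of 5 populations, all 5 draws). Myh3, the embryonic myosin heavy chain, stood at 4.06 and 31.6, 0.501 and 7.53, 2.62 and 5.88, 4.38 and 36.3, and 28.8 and 202 CPM in the same order, and fell by 2.64 (SE 0.28, edgeR adjusted p = 0.0273, 5 of 5 populations, all 5 draws). Both kept their direction but lost the call with any population but old replicate 1 left out. The edgeR adjusted p of Myog was then 0.156 when young replicate 1 was dropped, 0.0663 for young replicate 3, 0.0890 for old replicate 2 and 0.203 for old replicate 3. That of Myh3 was 0.133, 0.0508, 0.132 and 0.203 in the same order. With cells classed by Mcpt8 alone neither was called (edgeR adjusted p = 0.0967 for Myog and 0.111 for Myh3). The call of Myog was also lost with cells classed by Gzmc to Gzmg (0.176), with RLE size factors (0.0512) and with no filter on low counts (0.0756).

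Myl1, a fast myosin light chain, fell by 1.98 and was called in 4 draws. Its call was lost without young replicate 1 (edgeR adjusted p = 0.190), young replicate 3 (0.123) or old replicate 2 (0.166). Acta1, the skeletal muscle actin gene, had a log2 difference of -2.06 (edgeR adjusted p = 0.183), below 0 in 5 of 5 populations. Among less abundant genes called in all 5 draws were the creatine kinase gene Ckm (fell by 2.92), Lmod2, which nucleates actin filaments (fell by 3.00), Myoz2, a Z-disc protein (fell by 2.75), Casq2, a calcium store protein (fell by 2.41), and Hspb3, a small heat shock protein of muscle (fell by 2.02). Each was lower in 5 of 5 populations. These 5 are outside the naming rule and were chosen after their values were seen. In cells with protease RNA, Ckm stood at 0 CPM in young replicates 1 and 3 and at 0.0817 in old replicate 1. It stood at 1.09 CPM in old replicate 2 and 4.55 in old replicate 3. Lmod2 stood at 0, 0, 0.0817, 0 and 2.13 CPM in the same order. Outside old replicate 3 the direction of Ckm and Lmod2 thus rests on few counts. Of other function, the lipid phosphatase gene Inpp4b fell by 1.08 (all 5 draws) and Gatm, an enzyme of creatine synthesis, by 0.94 (4 of 5 draws). The call of Inpp4b was lost without young replicate 1 (edgeR adjusted p = 0.0758), old replicate 2 (0.0730) or old replicate 3 (0.289). The transcriptional repressor gene Zeb1 fell by 0.57 and Ppp1r27 fell by 1.73, but each was called in only 2 of the 5 draws.

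Odc1, the rate-limiting enzyme of polyamine synthesis, rose by 0.41 (SE 0.05, edgeR adjusted p = 0.00172, higher in 5 of 5 populations, all 5 draws). Its levels with and without protease RNA were 1219 and 938 CPM in young replicate 1, 422 and 382 in young replicate 3, 1158 and 868 in old replicate 1, 355 and 259 in old replicate 2, and 794 and 521 in old replicate 3. Gchfr, the feedback regulator of tetrahydrobiopterin synthesis, rose by 0.52 and Msln, which encodes mesothelin, by 0.48, each in 5 of 5 populations and called in 4 of 5 draws. The call of Gchfr was lost without young replicate 1 (edgeR adjusted p = 0.0597), old replicate 2 (0.144) or old replicate 3 (0.131). That of Msln was lost without young replicate 1 (edgeR adjusted p = 0.142), young replicate 3 (0.0636) or old replicate 2 (0.0572). H2-K1, an MHC class I gene, rose by 0.45 (4 of 5 draws) and Lbh, a transcription cofactor gene, by 0.38, although only 1 of 5 draws called Lbh. H2-K1 and Lbh lost their calls without young replicate 1 (edgeR adjusted p = 0.107 and 0.133), old replicate 2 (0.144 and 0.183) or old replicate 3 (0.131 and 0.158). The 4 other genes called higher lie outside the naming rule. They are Krt18, a keratin gene (1.23, higher in 3 of 5 populations), Reln, which encodes reelin (0.87, 4 of 5), Speer3 (0.87, 5 of 5) and 9530053A07Rik (0.52, 5 of 5). Krt18 was called in 4 of 5 draws, Speer3 in 3, Reln in 2 and 9530053A07Rik in 1. Of the 10 myogenic genes, 10 were tested, 0 rose and 1, Myog, fell. Of the 10, 7 were above 0, and their median was 0.20 against -0.02 over all genes tested. Pax7 had a log2 difference of 0.46 (SE 0.15, edgeR adjusted p = 0.288) and the heparan sulfate proteoglycan gene Sdc4 one of 0.36 (adjusted p = 0.0826). Myod1 was at -0.03 (adjusted p = 1.0) and the proliferation gene Mki67 at -0.09 (adjusted p = 0.752). The populations went opposite ways for Myod1, from -0.82 in young replicate 3 to 0.53 in old replicate 1. In old replicate 1 other myogenic genes stood higher in cells with than without protease RNA: Myf5, a determination factor, at 29.5 and 5.14 CPM, the integrin gene Itga7 at 42.2 and 15.2, and the acetylcholine receptor gene Chrna1 at 225 and 95.0. None of these 3 was called over the 5 populations, and whether old replicate 1 differed from the others was not tested.

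The number of calls depended on the populations in the fit. Leaving out old replicate 1 raised it to 286. It was 35 with young replicate 1 left out, 36 with old replicate 2 left out and 27 with old replicate 3 left out. Without the population as a block it was 0, with 5 genes at an unadjusted p under 0.05. Without thinning it was 25. None of the 15 named genes changed direction under any alternative tried, and Odc1 kept its call with each population left out. Without thinning Odc1 was not called (0.38 on the log2 scale, edgeR adjusted p = 0.0899), and neither were Gchfr, Msln, H2-K1 or Lbh. In all, 10 of the 15 named genes lost the call without thinning, so genes named as lower were among them. The full depth of cells in the 2 classes was close: the medians with and without protease RNA were 13573 and 13928 UMIs in young replicate 1, 16035 and 15529 in young replicate 3, 14004 and 13530 in old replicate 1, 20277 and 19817 in old replicate 2, and 13794 and 12637 in old replicate 3. The p-values come from the edgeR fit over these 5 populations, which draws each gene's spread towards that of other genes. They and the SE are therefore not the plain spread of a gene's 5 folds. Those of Smpx, for example, ran from -3.31 in young replicate 1 to -0.44 in old replicate 1.

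**Figure D4:**
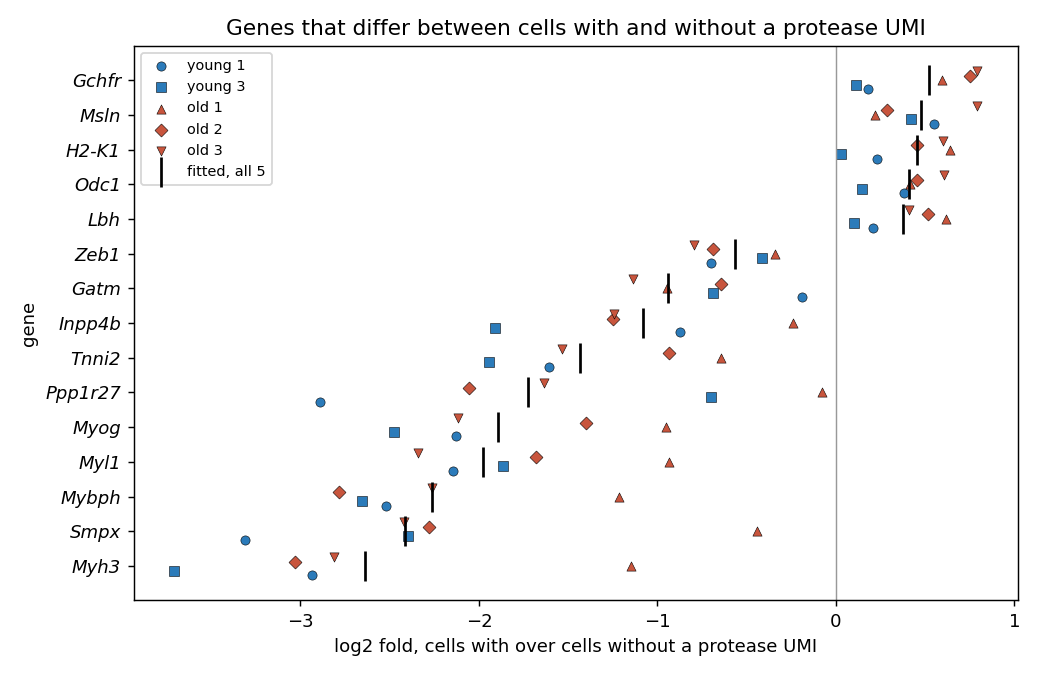
Log2 fold of 15 genes between cells with and without a protease UMI within each of 5 populations (coloured points; blue young, red old) and the edgeR fit over all 5 (black bars). Myh3 (-2.64) and Myog (-1.89) lie left of 0 in each population, nearest to 0 in old replicate 1, and Odc1 (0.41) lies right of 0.

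The shares were also counted by cells at 5000 UMIs. In old replicate 3, a member UMI was found in 10.4% (95% exact binomial interval 9.07 to 11.9) of 1830 cells with a Myh3 UMI and in 32.2% (31.3 to 33.1) of the others. The Myh3 shares were 1.43% and 4.01% in old replicate 2 and 2.56% and 7.13% in young replicate 1. In old replicate 1 (20.6% of 34 cells and 23.9%) and young replicate 3 (3.70% of 54 cells and 10.6%) their intervals overlapped. With Myog in place of Myh3 the shares in old replicate 3 were 18.1% and 38.0%. In young replicate 3 they were 5.14% of Myog cells and 10.9% of others, and in old replicate 2 they were 2.2% and 4.2%. For young replicate 1 the shares were 4.71% and 7.13%, and for old replicate 1 they were 17.9% of only 67 Myog cells and 23.9%, with intervals that overlap in both. No class known to lack these genes was at hand to measure free RNA in the droplets, and its part in these shares was not tested. Pax7 cells went the other way in old replicates 1 and 3: 40.2% against 23.1% in old replicate 1 and 34.6% against 27.8% in old replicate 3 had a member UMI. In old replicate 2 the Pax7 shares were 4.49% and 3.83%, and in young replicate 1 they were 7.25% and 7.03%, with overlapping intervals. Cells with Cdkn2a, a cell cycle inhibitor gene of senescence, had a member in 30.2% against 19.4% in old replicate 3 and in 6.60% against 3.52% in old replicate 2. In old replicate 3 most cells held a Cdkn2a UMI, 10738 against 1430 without. The share with a member over all thinned cells of old replicate 3 was 28.9%. The intervals overlapped in old replicate 1 (25.1% against 23.4%), young replicate 3 (12% against 10.5%) and young replicate 1 (6.02% against 7.11%). In the fit over 5 populations Cdkn2a had a log2 difference of 0.18 (edgeR adjusted p = 0.565). Mki67 cells had a member in 33.0% against 28.1% in old replicate 3 but in 21.5% against 25.1% in old replicate 1.

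The gene most like the proteases over the 6 populations was Gchfr. Its level was 26.3, 0.477 and 15.5 CPM among the young and 87.1, 5.74 and 58.8 CPM among the old replicates, and its Pearson r with the summed members on the log2(CPM + 1) scale was 0.984. Next came Mybl1, a germ line relative of the Myb factor (0.975), Wrap53, a telomerase RNA factor (0.963), Dnase2a, an acid DNase (0.960), and Igfbp4, an IGF binding protein (0.959). These are the highest of 9606 genes with a mean of 5 CPM or more over only 6 points, so they describe these libraries and carry no p. Igfbp4 reached 65.4 CPM in old replicate 3 and 33.2 in old replicate 1, yet within populations its log2 difference between cells with and without protease RNA was -1.27 (edgeR adjusted p = 0.489). Over the 12168 thinned cells of old replicate 3 the highest r was 0.360, for Spp1, the secreted phosphoprotein osteopontin. S100a6 (0.254), Ifitm3 (0.226), Odc1 (0.219), Timp1 (0.218), S100a4 (0.217), Ptma (0.209), Actg1 (0.202), Ftl1 (0.186) and Id3 (0.180) followed. The most negative were Myog (-0.262), Mylpf (-0.240), Acta2 (-0.235), Tnnt1 (-0.235) and Acta1 (-0.232), the first the differentiation factor and the rest contractile genes. Such cells share a library, and r over sparse counts is a description. In the fit over 5 populations Spp1 had a log2 difference of 0.46 (SE 0.09, edgeR adjusted p = 0.121), above 0 in 5 of 5.

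Most other genes of the cluster had too few counts to show a pattern. Ctsg, which encodes cathepsin G and lies between Mcpt8 and Gzme, had 0 counts in 4 populations, 2 in old replicate 2 and 3 in old replicate 3. Gzmn, which lies between Gzmg and Gzmf, had 176 counts in young replicate 2, where the members were lowest, and at most 7 elsewhere. Gzmb, the next gene beyond Gzmc and the main granzyme of cytotoxic cells, was likewise highest in young replicate 2, at 1.47 CPM, then in old replicate 2 at 0.415 CPM, and at most 0.0707 CPM in the other 4. The chymase genes Cma1, Cma2, Mcpt1, Mcpt2, Mcpt4 and Mcpt9 on the other side had at most 15 counts each in any population. Cma1 had 3, 0 and 2 counts among the young and 15, 4 and 7 among the old replicates, Cma2 had 7, 2 and 5 against 11, 2 and 2, and Mcpt1 had 0, 2 and 0 against 0, 7 and 13. Atp12a, the next gene beyond Gzmb, had 11, 4 and 7 counts among the young and 33, 9 and 13 among the old replicates, and a log2 difference of 1.10 (edgeR adjusted p = 1.0). Of these 9 other cluster genes, 1, Gzmb, was tested in the comparison of old with young populations, and it was not called. Further out, neighbours were even or uneven. Mphosph8 stood at 46.1 to 87.2 CPM, Parp4 at 10.7 to 14.4, Cenpj at 7.17 to 12.1 and Khnyn at 2.65 to 3.84. The ranges of these 4 are narrow beside the range of Mcpt8, 0.073 to 61.7 CPM. Sdr39u1, beyond the chymases, was uneven in another way, with 0 and 1 counts in young replicates 1 and 3 and 552 to 1816 in the other 4. Nynrin, beyond it, had 2, 0 and 346 counts among the young and 29, 1 and 475 among the old replicates, and Gja3, at the far end on the other side, had 3 to 160.

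**Figure D5:**
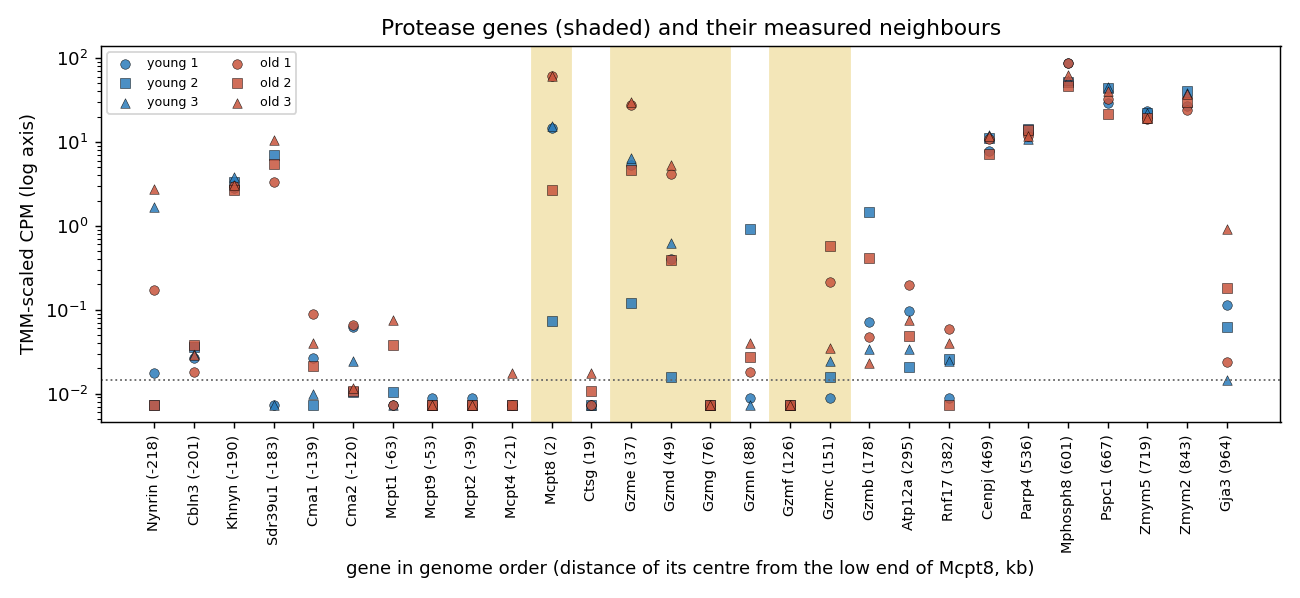
Level of the 6 protease genes (shaded) and of their measured neighbours in genome order in the 6 populations (TMM CPM, log axis; blue young, red old). The dotted line is the lowest level of 3 counts, and values of 0 or far under it are drawn at the bottom; Mcpt8, Gzme and Gzmd reach 61.7, 30.2 and 5.36 CPM, while the other cluster genes stay at or under 1.47 CPM.

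Granzymes elsewhere in the genome were scarce or even. Gzmm stood at 0.655 to 1.10 CPM in all 6 populations, Gzmk had 1 to 14 counts and Gzma 1 count in all. Several genes of granzyme storage and release were at or near 0. Prf1, which encodes perforin, had 9 counts in young replicate 2, 2 in old replicate 1 and none in the other 4, and Nkg7 had 1 count in each of 2 populations. Srgn, the proteoglycan core of granules, reached at most 0.131 CPM. Ctsc, the enzyme that activates progranzymes, was at 10.2 CPM in young replicate 3, at 0.888 to 1.36 CPM among the old replicates, and had 0 counts in young replicates 1 and 2. The lysosomal genes Lamp1 (289 to 758 CPM) and Ctsh (26.7 to 114 CPM) were well expressed, and so, at a lower level, were Lyst (7.58 to 24.2), Stx11 (5.80 to 9.43), Stxbp2 (1.10 to 6.46) and Unc13d (0.352 to 2.98), whose products serve granule exocytosis. Of 11 granule genes, 9 were tested between old and young and 7 between cells with and without protease RNA. None was called in either, with medians of -0.42 and -0.02 against -0.01 and -0.02 over all genes tested. Over all genes 0.00689% and 0.632% were called, so no call in so short a list says little.

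Genes of intracellular serpins, a family that includes granzyme inhibitors, were present. Whether their products act on the proteases described here was not tested. Serpinb6a, an intracellular serpin, stood at 222 to 696 CPM in the 6 populations. Serpinb9, the mouse inhibitor of granzyme B, stood at 3.13 to 9.74 CPM, Serpinb9b at 0.504 to 44.9, Serpinb9e at 0.0098 to 2.36, Serpinb1a at 1.06 to 17.4 and Serpinb6b at 0.319 to 9.97 CPM. Of 8 serpin genes, 7 and 6 were tested in the 2 comparisons and none was called, with medians of 0.45 and -0.27. Of 13 transcription factor genes of cytotoxic, mast and basophil lineages, 11 and 10 were tested and none was called, with medians of 0.13 and -0.06. For both lists the shares called over all genes were 0.00689% and 0.632%, so the absence of calls says little. Runx1 had the highest mean level, at 97.6, 404 and 172 CPM among the young and 143, 268 and 263 CPM among the old replicates. Id2 stood above it in young replicate 3 (174 CPM) and in old replicates 2 and 3 (309 and 266 CPM). The part of Runx1 in the protease levels was not tested. Id2 (44.8 to 335 CPM), Gata2 (3.41 to 21.7), Nfil3 (5.40 to 10.9), Stat5b (5.62 to 11.6) and Stat5a (3.63 to 11.2) were found in all 6. Tbx21, the T-bet gene of cytotoxic lymphocytes, had at most 11 counts and Gata1 at most 8. Eomes, its relative in cytotoxic and natural killer cells, was present, at 4.30, 0.342 and 1.51 CPM among the young and 7.35, 1.56 and 0.145 CPM among the old replicates. Runx3 stood at 2.97, 0.887 and 0.763 CPM among the young and at 4.48, 17 and 0 CPM among the old.

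Immune genes were also counted in cells with and without a member UMI, as a description with no test. Without thinning, Ptprc was found in 3 of 3988 cells with and 5 of 6159 cells without a member UMI in old replicate 1, and in 1 of 6108 and 5 of 6433 in old replicate 3. Cd53 was found in 217 of 3988 and 248 of 6159 cells in old replicate 1 and in 721 of 6108 and 247 of 6433 in old replicate 3. In old replicate 2 it was in 91 of 1137 and 342 of 7588 cells. For young replicate 1 the counts were 296 of 1516 and 1233 of 7158, and for young replicate 3 they were 14 of 3157 and 27 of 7623. Laptm5, a lysosomal gene of blood cells, was in 52 of 6108 and 15 of 6433 cells in old replicate 3, in 7 of 3988 and 3 of 6159 in old replicate 1, and in 25 of 1137 and 160 of 7588 in old replicate 2. Ms4a2 was in 23 of 3988 and 17 of 6159 cells in old replicate 1 and in 8 of 1516 and 14 of 7158 in young replicate 1. Of the 12 genes counted this way, the other 8 (Kit, Fcer1a, Cpa3, Cd3e, Nkg7, Prf1, Tyrobp and Prss34) had at most 11 UMIs in any population. These cells were not thinned, and those with a member were deeper, with medians of 14593 against 12922 UMIs in old replicate 1 and 14266 against 11591 in old replicate 3. The part of these genes and of depth in the counts was not tested. The 10 fibro-adipogenic genes, of which 6 were tested between cells with and without protease RNA and 7 between old and young, had no call in either, with medians of -0.03 and 0.33. In the comparison of old with young the 10 myogenic genes had no call (10 tested, median 0.18). Over all genes 0.00689% were called between old and young and 0.632% between the classes. The absence of calls in these short lists therefore says little.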

How the data were processed

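Single-cell RNA of 6 cultured MDSPC populations was measured. The authors deposited 1 matrix of raw UMI counts per gene and barcode for each, made with Cell Ranger 7.0.0 (both replicates 1) or 7.2.0, per the file headers. The submitters' processing notes name Cell Ranger 7.2.0 and the build mm10. The annotation release, cell calling and handling of intronic or multiply mapped reads are not given in the sources used here. The other deposited columns hold barcodes and gene identifiers.

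Barcodes with 1000 or more UMIs, 500 or more genes and under 15% mitochondrial UMIs were kept, and the 21485 shared identifiers used. Scrublet (scanpy 1.11.5) called 2 of 61673 cells (0.00324%; 7.13% to 10.2% expected per population), was taken not to have worked, and no cell was removed. Counts were summed per population, or per population and class after thinning. The sums were fitted in R 4.3.3 by edgeR 4.0.16 (filterByExpr, TMM, robust two-sided quasi-likelihood F test, Benjamini-Hochberg at 0.05). Old against young had a term for gene list, and classes needed 50 cells each. DESeq2 1.42.0 was an alternative. SE is the absolute log2 fold over the square root of F. Both fits were also run on simulated counts whose populations had the same mean levels apart from the changes put in. These populations differ widely, so that run does not show how the fits do on them. The labels call the replicates biological but name no animals, so p-values cover these populations only. In edgeR each gene's spread is also drawn towards that of other genes. Member genes were left out of the fit between classes.

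The members and lists were chosen with earlier results of these data known. Named between classes were up to 10 genes per direction with the largest fold among calls with mean log2 CPM above 4 and 1 direction in all populations. From each list, up to 6 of the most abundant were open to naming, and others named were chosen after their values were seen. Most-like genes were the top 5 over populations (mean 5 CPM or more) and top 10 over cells of old replicate 3 (in 2% of cells or more). Positions come from GENCODE M21 and promoters from RefSeq (GRCm38.p6). One T cell gene, Trac, is not on the shared list.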

Additional observations from a re-analysis of the deposited data

How the results depend on the processing

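The levels of Mcpt8, Gzmc, Gzmd, Gzme and all members, and the shares of cells with Mcpt8, Gzme or any member, kept their direction, old above young on average, under each cell filter, scaling, denominator, depth and detection alternative. A further alternative, leaving out cells of highest Scrublet score, says nothing on doublets, since that caller was taken not to have worked. Leaving out 1 population gave differences of 36.5 to 80.5 CPM. The old minus young share of cells with a member was 13 points at 5000 UMIs, 18.0 without thinning, 7.09 at 2000 UMIs, 17.9 at 10000 UMIs and 6.14 for 2 or more UMIs. For Gzme alone the size moved more, from 6.37 points at 5000 UMIs to 12.4 without thinning. It was 2.95 at 2000 UMIs, 10.6 at 10000 UMIs and 1.68 for 2 or more UMIs. Old against young, 1 gene was called. There were 0 calls without the gene list term, 0 in the 4 populations on the longer list, 261 with DESeq2 and 0 to 3 when 1 population was left out (0 without young replicate 1 or old replicate 1, 3 without young replicate 3).

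Cells with against without protease RNA, 78 genes were called. The count was 135 with no filter on low counts, 51 with DESeq2, 133 at 2000 UMIs, 25 without thinning and 140 by Gzmc to Gzmg alone; the cause was not tested. Of the 78, 76, 30, 33, 15 and 63 were called again. Leaving out 1 population gave 27 to 286 calls. Of the 15 named genes, 8 lost the call without young replicate 1, 4 without young replicate 3, 8 without old replicate 2, 6 without old replicate 3 and 10 without thinning. With cells classed by Mcpt8 alone 4 lost it, by Gzmc to Gzmg 2, and by 2 or more member UMIs 4 of 14. At 2000 UMIs 2 lost it, and with no filter on low counts 2. With no replicate block (population not as a block) there were 0 calls, with 5 genes at an unadjusted p under 0.05. In old against young, replicate numbers were not taken to pair samples. Same-numbered deviations from the group means correlated at 0.378, 0.224 and -0.0814. Young and old replicate 1 correlated best with each other, but young replicate 2 correlated best with old replicate 3, at 0.276. With so few samples these values cannot exclude a pairing. The replicate block called 1 gene. Leaving out young replicate 2 changes nothing between classes, where it did not enter. Depth limits Gzmf and Gzmg, at or under 3 counts.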

Other observations

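Over the 9906 thinned cells of old replicate 1, a likeness measure added after the data were seen gave other genes than in old replicate 3. Cd63, a tetraspanin of granules and late endosomes, had the highest r with the summed proteases, at 0.342. Rpl41 (0.304), the acetylcholine receptor gene Chrna1 (0.277), Ankrd1 (0.255) and Nrcam (0.251) followed. Among the lowest were the ribosomal protein genes Rpl28 (-0.267) and Rpl13 (-0.226). S100a6, among the highest in old replicate 3 at 0.254, was among the lowest here at -0.186. These values describe 2 libraries, and the difference between them was not tested.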
